A study of Mus musculus with 6 samples.

Results

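The miR-30 family was described in N2A (Neuro2A) cells, a cell line from a mouse neuroblastoma, by small RNA sequencing of total RNA. Members were the entries of mmu-miR-30a, mmu-miR-30b, mmu-miR-30c, mmu-miR-30d and mmu-miR-30e (mmu for mouse, left off below), all arms and length variants, which gave 11 entries of 1080 listed per library, 5 from 5p arms and 6 from 3p arms. They were picked by a rule on names that used no measured value, although the family was chosen with earlier results of these data known. The 6 libraries came from N2A cells given an siRNA at 100 nM with a lipid reagent, 3 with the comparator siRNA labelled si-NC and 3 with si-circCpsf6, which is directed at the circular RNA circCpsf6. Both groups were grown in the same serum-containing medium, and all 6 libraries come from this 1 cell line. The labels do not say whether replicates were separate cultures, so the spread between them may be technical, and the level of circCpsf6 was not analysed here.

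A microRNA is cut from a hairpin precursor, and 1 of its arms is usually the one loaded into an Argonaute protein. Bases 2 to 8 of the loaded strand, the seed, pair with target messenger RNAs, so members with a common seed can act on overlapping targets. The miR-30 family is widely expressed, and known targets of its members include the autophagy gene Becn1, the transcription factor Snai1, which drives loss of the epithelial state, and the Notch ligand Dll4 in endothelium.

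Mature sequences are shown because the 5p arms share a seed and differ downstream of it, and because the 3p arms fall into separate seed groups. They were taken from RefSeq (GRCm38.p6), which matched 7 of the 11 entries. The entries for miR-30b and miR-30d are named only. Capitals mark the seed, and each sequence runs 5′ to 3′.
miR-30a-5p: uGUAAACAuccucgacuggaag
miR-30e-5p: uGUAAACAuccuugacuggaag
miR-30c-5p: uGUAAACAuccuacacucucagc
miR-384-5p: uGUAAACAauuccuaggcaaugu
miR-30a-3p: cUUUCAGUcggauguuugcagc
miR-30e-3p: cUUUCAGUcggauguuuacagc
miR-30c-1-3p: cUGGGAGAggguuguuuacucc
miR-30c-2-3p: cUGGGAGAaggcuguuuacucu

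The 5p arms of miR-30a and miR-30e differed by a single substitution, C13U, counted from the 5′ end of miR-30a-5p. How the authors assigned reads between near-identical members is not given in the sources used here, so the split between these entries is uncertain. miR-30c-5p was identical to miR-30a-5p over its first 12 bases and differed at 5 of the 22 positions compared, all downstream of the seed. Among mature mouse miRNAs in the table, miR-384-5p alone shared the seed GUAAACA with the 5p arms of miR-30a, miR-30c and miR-30e, and its run of identity with miR-30a-5p ended after 8 bases. The 3p arms of miR-30a and miR-30e shared the seed UUUCAGU and differed by G18A. The 3p arms of the miR-30c hairpins shared UGGGAGA and differed by G9A, U12C and C22U.

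The 6 hairpins lie as 3 pairs (GENCODE M21, GRCm38, placed by name). Mir30a (chr1:23272269-23272339) and Mir30c-2 (chr1:23291701-23291784) lie 19361 bases apart on the plus strand, Mir30a outside any other annotated gene and Mir30c-2 within an exon of Gm27028, a long noncoding RNA. Mir30c-1 (chr4:120769534-120769622) and Mir30e (chr4:120772606-120772697) lie 2983 bases apart on the minus strand in an intron of Nfyc, which encodes a subunit of the transcription factor NF-Y. Mir30e also overlaps Mir30f, a miRNA gene annotated on the plus strand, which is not among the members. Mir30b (chr15:68337415-68337510) and Mir30d (chr15:68341208-68341289) lie 3697 bases apart on the minus strand of chromosome 15. Mir30b overlaps an exon of the processed transcript Gm26621, and Mir30d one of the long noncoding RNA Gm20732. The mature 5p arm of miR-30c is the same from Mir30c-1 and Mir30c-2, so its value cannot be divided between chromosomes 1 and 4.

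In these libraries the family was abundant, and its members kept to 2 very different levels by arm. Summed over the 5 entries, the 5p arms held between 5.83% and 6.70% of the library total. Here and below, that total is the sum over all 1080 listed entries, with repeated rows counted each time. The 6 3p entries together held between 0.0746% and 0.120%. Values are the authors' normalized read numbers per entry. A read spans a whole miRNA, so no division by length was needed, but read numbers of different miRNAs also carry how readily each is captured in a library.

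miR-30d-5p had the highest mean of the family and ranked 9 among all entries. It was listed at 72475, 78509 and 30139 in si-NC replicates 1, 2 and 3 and at 60079, 86786 and 48167 across the si-circCpsf6 replicates. Its lowest value was in si-NC replicate 3, and the groups overlapped. The means were 60374 ± 26358 with si-NC and 65011 ± 19776 with si-circCpsf6 (means ± SD of 3 libraries each, as throughout), with a log2 change of 0.18 (SE 0.42).

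miR-30b-5p, whose hairpin neighbours that of miR-30d, was listed at 34588, 23906 and 55403 with si-NC and at 37279, 32992 and 46901 with si-circCpsf6. Its highest value was in si-NC replicate 3, the library where miR-30d-5p was lowest, and its lowest was in si-NC replicate 2. Means were 37966 ± 16018 and 39057 ± 7123 (log2 change 0.11, SE 0.35).

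miR-30a-5p, the member best known for repressing Becn1, was listed at 39240, 39689 and 20579 with si-NC and at 37179, 44959 and 31725 with si-circCpsf6. As for miR-30d-5p, si-NC replicate 3 was lowest and si-circCpsf6 replicate 2 highest. The means of 33169 ± 10906 and 37954 ± 6651 gave a log2 change of 0.24 (SE 0.33). Without si-NC replicate 3 that change was -0.071, and the change of miR-30d-5p was -0.26.

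miR-30e-5p, from the Nfyc intron, was listed at 37963, 41808 and 28649 with si-NC and at 26150, 30721 and 27039 with si-circCpsf6. Of the 5p arms it was the single one with a lower mean with si-circCpsf6, although si-circCpsf6 replicate 2 lay above si-NC replicate 3. The means were 36140 ± 6766 and 27970 ± 2424 (log2 change -0.36, SE 0.26), and the change lay between -0.52 and -0.24 over the 17 alternatives, without passing the test in any of them.

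miR-30c-5p was the least abundant 5p arm, at 11106, 12047 and 15177 with si-NC and at 13740, 14168 and 14499 with si-circCpsf6. The si-circCpsf6 values lay inside the si-NC range. Means were 12777 ± 2131 and 14136 ± 381 (log2 change 0.16, SE 0.24).

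By mean over the 6 libraries the 5p arms ranked in the order miR-30d, miR-30b, miR-30a, miR-30e and miR-30c. miR-30d-5p exceeded miR-30b-5p in 5 of 6 libraries, the exception being si-NC replicate 3. miR-30b-5p exceeded miR-30a-5p in 3 of 6, and miR-30a-5p exceeded miR-30e-5p in 4 of 6, so these neighbours were not separated beyond their spread. miR-30e-5p exceeded miR-30c-5p in 6 of 6 libraries, with ranges that did not overlap.

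**Figure D1:**
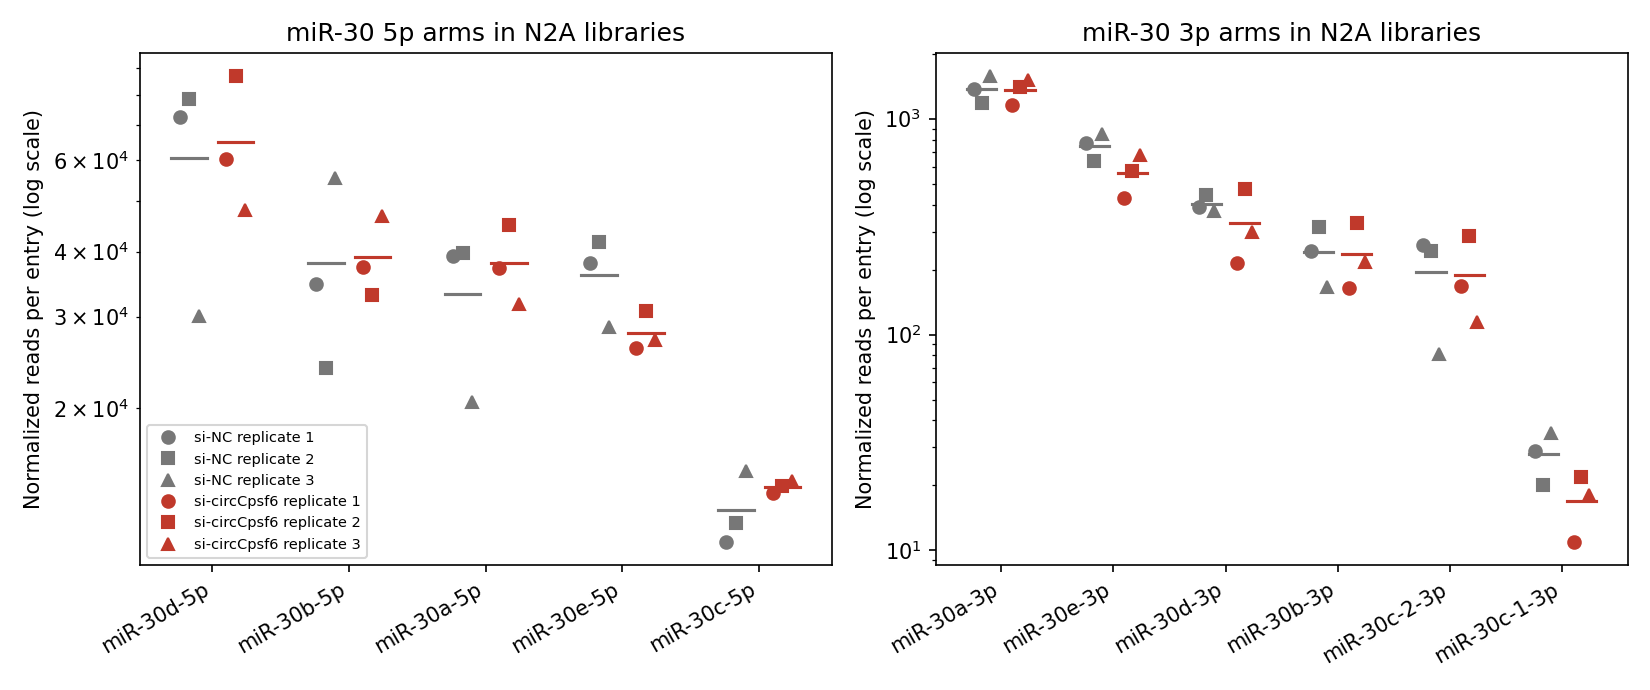
Normalized reads (log axis) of the miR-30 5p arms (left) and 3p arms (right) in each library, grey for si-NC and red for si-circCpsf6, with marker shape for the replicate and a bar at the mean of 3 libraries. The groups overlap for each of the 11 entries, and the grey triangle, si-NC replicate 3, is lowest for miR-30d-5p and miR-30a-5p and highest for miR-30b-5p and miR-30c-5p.

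The summed 5p value varied less between libraries than most of its parts. The sum was 195372, 195959 and 149947 with si-NC and 174427, 209626 and 168331 with si-circCpsf6, a highest-to-lowest ratio of 1.40, against 2.88 for miR-30d-5p, 2.32 for miR-30b-5p and 2.18 for miR-30a-5p. The ratio was 1.37 for miR-30c-5p. The group means were 180426 ± 26397 and 184128 ± 22291, and as a share of the library 6.31 ± 0.440% with si-NC and 6.11 ± 0.287% with si-circCpsf6. The difference between these sums was 3702 as deposited, -6028 when libraries were rescaled to 1 total, and -11538 without si-NC replicate 3, so the sum gave no stable direction.

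Within the sum, the shares of miR-30b-5p and miR-30d-5p ran in opposite directions over the libraries. Shares of a sum constrain each other, so a rise in the share of a large member in itself lowers the rest. miR-30b-5p made up 17.7%, 12.2% and 36.9% of the sum across the si-NC libraries, and 21.4%, 15.7% and 27.9% across the si-circCpsf6 libraries. miR-30d-5p made up 37.1%, 40.1% and 20.1% with si-NC and 34.4%, 41.4% and 28.6% with si-circCpsf6. The libraries with the lowest shares of miR-30d-5p, si-NC replicate 3 and si-circCpsf6 replicate 3, had the highest shares of miR-30b-5p. In each library there were between 0.544 (si-NC replicate 3) and 3.28 (si-NC replicate 2) reads of miR-30d-5p per read of miR-30b-5p, a 6.04-fold range between entries whose hairpins are neighbours. In both groups replicate 2 had the highest ratio and replicate 3 the lowest.

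**Figure D2:**
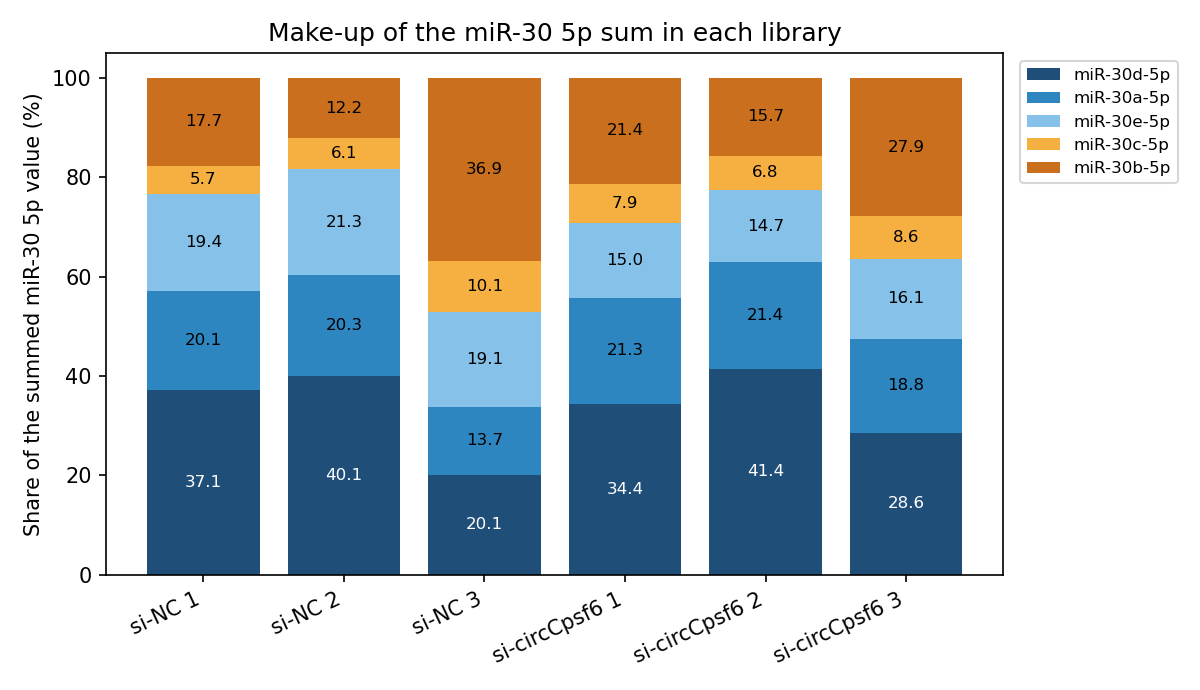
Share (%) of each 5p arm in the summed miR-30 5p value of each library, with blue for miR-30d, miR-30a and miR-30e and orange for miR-30c and miR-30b. The orange part is 18.3% in si-NC replicate 2 and 47.1% in si-NC replicate 3, and the light blue miR-30e-5p part is smaller in each si-circCpsf6 library than in any si-NC library. Groups were likewise apart for 11.7% of all entries tested.

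All 10 pairs of 5p arms were correlated over the 6 libraries on the log2(value + 1) scale, with two-sided exact permutation tests of the pairing and Benjamini-Hochberg adjustment over the 10 pairs. These correlations, their tests and the shares tested below were added after the data had been seen. The points share each library's normalization, so the pairs are not independent of each other. The tests treat the 6 libraries as exchangeable, although they form 2 groups by siRNA. Same-numbered libraries of the groups may also be related, so these p-values may be too small. miR-30a-5p and miR-30d-5p, from different chromosomes, had the same rank order in all 6 libraries (Pearson r = 0.983, Spearman rho = 1, n = 6, exact permutation p = 0.0028 for both, adjusted 0.028). The Pearson r was 0.902 without the 2 libraries farthest from the median of miR-30a-5p, and 0.968 without si-NC replicate 3. miR-30b-5p and miR-30d-5p, from neighbouring hairpins, ran in opposite directions (r = -0.878, rho = -0.943, n = 6, exact permutation p = 0.017 for both, adjusted 0.083 and 0.056). Without the 2 libraries farthest from the median of miR-30b-5p, r was -0.951, and without si-NC replicate 3 it was -0.787. miR-30a-5p and miR-30b-5p also ran in opposite directions (r = -0.808, rho = -0.943, n = 6, exact permutation p = 0.025 and 0.017, adjusted 0.083 and 0.056), a relation that rested on the outer libraries, since r was -0.142 without the 2 farthest. Of the 10 pairs, miR-30a-5p with miR-30d-5p alone passed the adjusted threshold of 0.05. No such share was computed for pairs of other entries, so how common so high an r is in these libraries is unknown.

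With the group means removed, miR-30a-5p, miR-30d-5p and miR-30e-5p were positively correlated in each pair (r between 0.941 and 0.995), miR-30b-5p was positively correlated with miR-30c-5p (0.727), and each of the former was negatively correlated with each of the latter (r between -0.928 and -0.776). As measured, the group formed with miR-30e-5p was looser, with r = 0.395 between miR-30a-5p and miR-30e-5p (0.075 without the 2 libraries farthest from the median of miR-30a-5p) and 0.537 between miR-30d-5p and miR-30e-5p, so miR-30e-5p joined the others closely once the group means were removed. The place of miR-30c-5p was not firm either. As measured, its r was -0.560 with miR-30a-5p, -0.625 with miR-30d-5p and -0.829 with miR-30e-5p. Without the 2 libraries farthest from the median (of miR-30a-5p for that pair, otherwise of miR-30c-5p) these were 0.364, -0.796 and 0.301. This division into miR-30a, miR-30d and miR-30e against miR-30b and miR-30c was noticed in the values and is a description of 6 libraries, with no test. It does not follow the pairs of hairpins in the genome, where miR-30b neighbours miR-30d and miR-30c has a hairpin beside miR-30e. Properties of the libraries moved in part with it. si-NC replicate 3 had the fewest entries at 1 or more (558, against 717 to 849 in the others). It also had the lowest mean entry length weighted by value (22.28 bases, over the entries with a RefSeq sequence). The libraries richest in miR-30d-5p relative to miR-30b-5p, si-NC replicate 2 and si-circCpsf6 replicate 2, had the highest length (22.51 and 22.55 bases). si-NC replicate 1 departed from this order. Its ratio of miR-30d-5p to miR-30b-5p was 2.10, against 1.61 in si-circCpsf6 replicate 1, but its length was lower (22.33 against 22.41 bases). The length also counts the entries of miR-30a-5p, miR-30c-5p and miR-30e-5p themselves, so it is not independent of the division. The entries of miR-30a-5p, miR-30d-5p and miR-30e-5p are named as carrying 2 bases more at the 3′ end than the reference, miR-30c-5p as carrying 1, and miR-30b-5p none. The part of these library properties in the division was not tested.

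**Figure D3:**
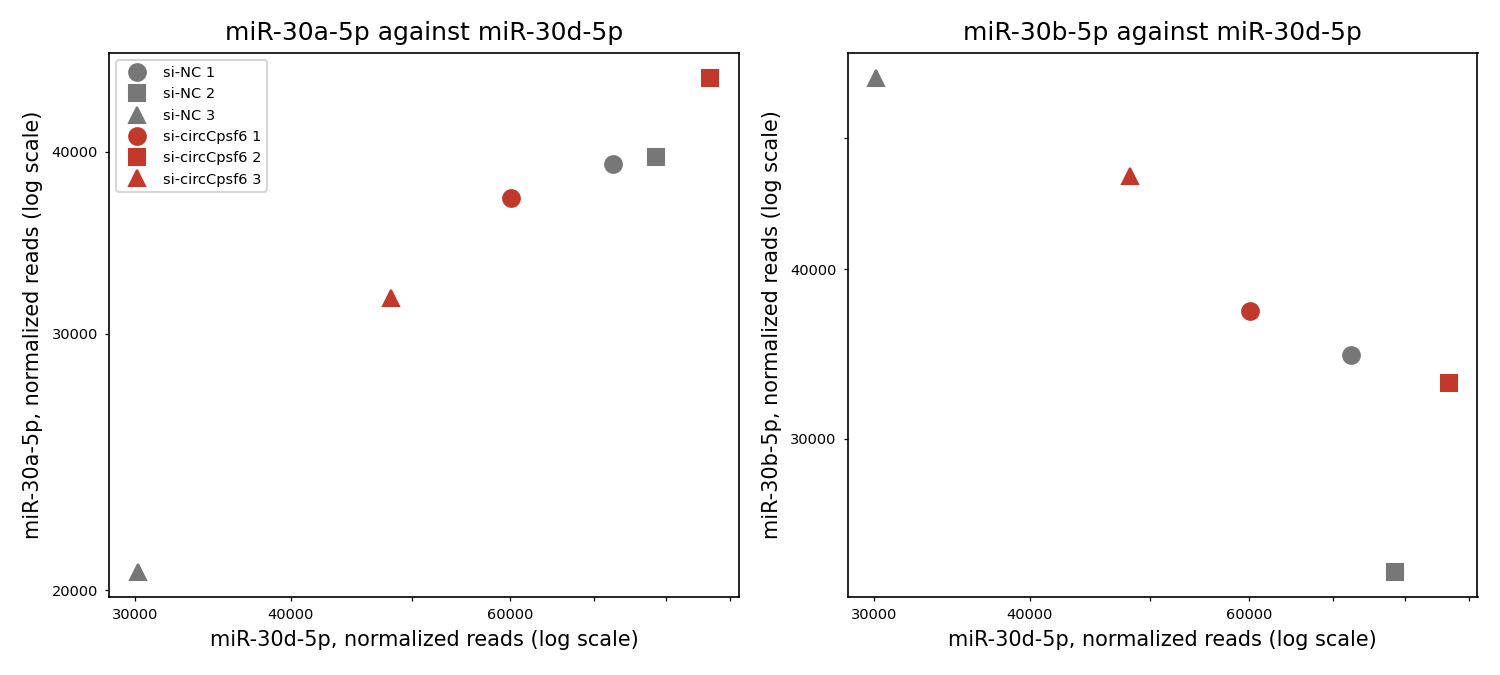
miR-30a-5p (left) and miR-30b-5p (right) against miR-30d-5p in normalized reads on log axes, 1 point per library, with colour for the group and shape for the replicate. miR-30a-5p rises with miR-30d-5p over all 6 libraries (r = 0.983), whereas miR-30b-5p runs against it (r = -0.878).

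The share of miR-30e-5p in the 5p sum was smaller in each si-circCpsf6 library than in any si-NC library, as the plot of the make-up shows. It was 19.4%, 21.3% and 19.1% across the si-NC libraries, and 15.0%, 14.7% and 16.1% across the si-circCpsf6 libraries, and the groups did not overlap. The difference of means was -4.72 points (exact permutation test, two-sided, p = 0.1, the smallest that 3 against 3 libraries can give, and 0.5 adjusted over the shares of the 5 members). It lay between -5.15 and -4.03 points with each library left out in turn. Since the groups did not overlap, no such leave-out could reverse its direction, so this range is no further support. A share within the sum does not depend on library scaling, but it moves with the other members. The groups overlapped for the shares of miR-30a-5p, miR-30b-5p, miR-30c-5p and miR-30d-5p. Over all entries tested the groups were apart for 11.7%, and over the hairpin ratios for 7.37%. No such background was computed for shares.

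The 3p arms were low. miR-30a-3p was the most abundant, at 1372, 1184 and 1571 with si-NC and 1157, 1401 and 1504 with si-circCpsf6, and it varied little between libraries (1376 ± 194 and 1354 ± 178, log2 change -0.022, SE 0.26). miR-30e-3p was listed at 768, 634 and 849 with si-NC and at 431, 571 and 680 with si-circCpsf6. Like its 5p partner it had a lower mean with si-circCpsf6, with groups that overlapped (750 ± 109 and 561 ± 125, log2 change -0.43, SE 0.31). The 3p arms of miR-30d (402 ± 35.4 and 329 ± 130) and miR-30b (242 ± 75.0 and 237 ± 84.9) followed.

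The 3p arms of miR-30c can be told apart by hairpin, unlike its 5p arm. miR-30c-2-3p, from chromosome 1, was listed at 261, 244 and 81 with si-NC and at 167, 285 and 114 with si-circCpsf6. miR-30c-1-3p, from the Nfyc intron, was listed at 29, 20 and 35 with si-NC and at 11, 22 and 18 with si-circCpsf6. In each library miR-30c-2-3p was the higher, by 2.31-fold in si-NC replicate 3 and by 6.33-fold to 15.2-fold in the others. At so few normalized reads the fold is imprecise, and the read depth that would set its error is unknown.

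The order of the 3p arms differed from that of the 5p arms. miR-30a-3p exceeded miR-30e-3p, miR-30e-3p exceeded miR-30d-3p, and miR-30d-3p exceeded miR-30b-3p in 6 of 6 libraries each, whereas miR-30b-3p exceeded miR-30c-2-3p in 4 of 6. The member with the most 5p reads, miR-30d, therefore had fewer 3p reads than miR-30a or miR-30e.

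The 5p arm dominated for each member, to different degrees. miR-30a had 28.6, 33.5 and 13.1 5p reads per 3p read with si-NC and 32.1, 32.1 and 21.1 with si-circCpsf6. miR-30e was at 49.4, 65.9 and 33.7 and at 60.7, 53.8 and 39.8. Both had their lowest ratio in si-NC replicate 3. miR-30c, with its 3p arms summed, was at 38.3, 45.6 and 131 with si-NC and at 77.2, 46.1 and 110 with si-circCpsf6, and was highest in that library. miR-30d was at 185, 178 and 80.6 and at 279, 184 and 161. miR-30b was at 142, 75.7 and 334 and at 227, 100.0 and 217, again with its highest ratio in si-NC replicate 3. Put as a share of both arms, the 3p arm held on average 3.99% for miR-30a, 2.04% for miR-30e, 1.62% for miR-30c, 0.698% for miR-30b and 0.640% for miR-30d.

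The 3p to 5p ratio was compared between groups by limma on log2 ratios over 217 hairpins with both arms listed, with Benjamini-Hochberg adjustment. Of the 5 members 0 passed at 0.05, where the background over all hairpins was 0%, and 0 had an unadjusted p under 0.05 (2.76% of all hairpins). The log2 changes of the ratio were -0.26 (95% interval -1.46 to 0.93) for miR-30a, -0.15 (-1.86 to 1.55) for miR-30b, -0.26 (-1.81 to 1.29) for miR-30c, -0.55 (-1.83 to 0.74) for miR-30d and -0.079 (-1.13 to 0.97) for miR-30e. The intervals leave room for a doubling or halving of the ratio in either direction for miR-30b and miR-30c. The groups overlapped for all 5 members, against groups apart for 7.37% of hairpins.

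**Figure D4:**
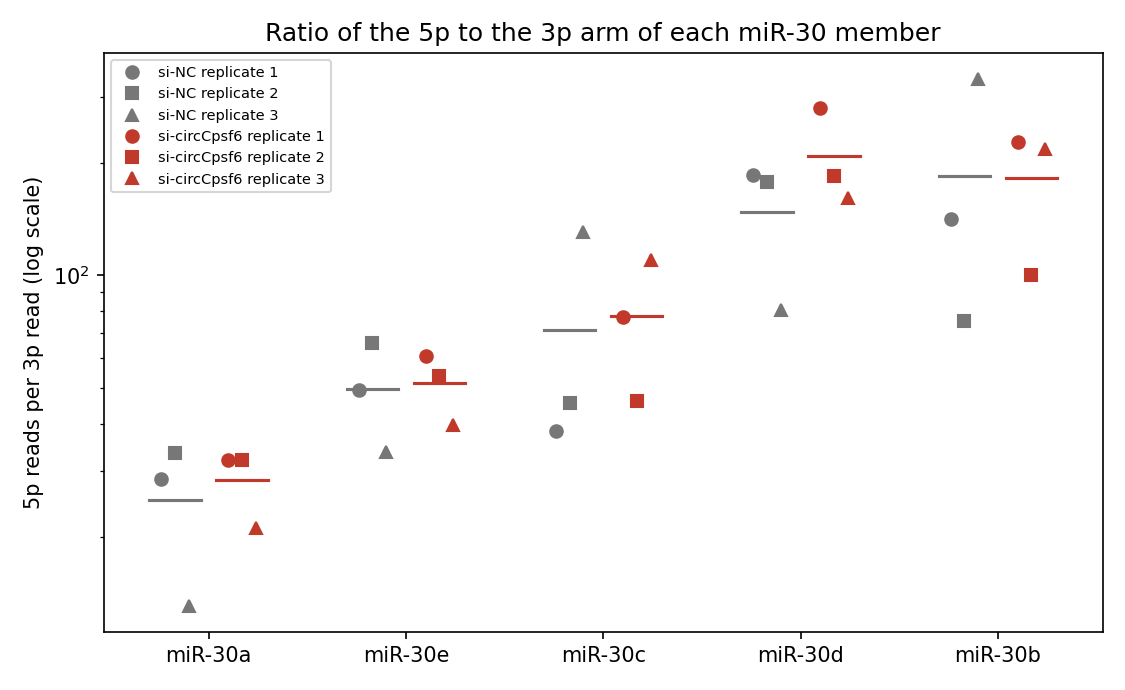
Reads of the 5p arm per read of the 3p arm (log axis) for each miR-30 member and library, grey for si-NC and red for si-circCpsf6, with marker shape for the replicate and a bar at the mean of 3 libraries. miR-30a has the lowest ratios, between 13.1 and 33.5, and si-NC replicate 3 is lowest for miR-30a, miR-30e and miR-30d and highest for miR-30c and miR-30b.

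In the comparison of si-circCpsf6 with si-NC, no miR-30 entry passed the test. By limma on log2(value + 1) over the 916 entries with a mean of 1 or more, which all 11 miR-30 entries reached, 0 of 11 had an adjusted p under 0.05, as had 0% of all entries. At an unadjusted p under 0.05 the count was 0 of 11, against 6.22% of all entries, and the groups did not overlap for 0 of 11, against 11.7% of all entries. The median log2 change was -0.022 over the 11 entries and 0.086 over all entries tested. Of the 5p arms, 4 had a log2 change above 0 and 1 below, and of the 3p arms 1 was above and 5 below. The 1 above, miR-30c-2-3p, was below 0 with libraries rescaled to 1 total. In RNA from whole cultures, a change in each cell and a change in part of the cells cannot be told apart.

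The lowest adjusted p of the family was 0.803, for miR-30e-3p, and over its alternatives it ran from 0.214 to 0.979. For miR-30e-5p the adjusted p was 0.829, with 0.107 to 0.979 over the alternatives, and the 95% interval of its log2 change ran from -0.95 to 0.24. The interval was narrowest for miR-30c-5p, at -0.39 to 0.71, and widest for the low miR-30c-1-3p, at -2.35 to 0.94 around a log2 change of -0.70. For miR-30a-5p it was -0.52 to 1.00, for miR-30b-5p -0.69 to 0.92 and for miR-30d-5p -0.79 to 1.16. Changes within these limits could not be resolved with 3 against 3 libraries.

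**Figure D5:**
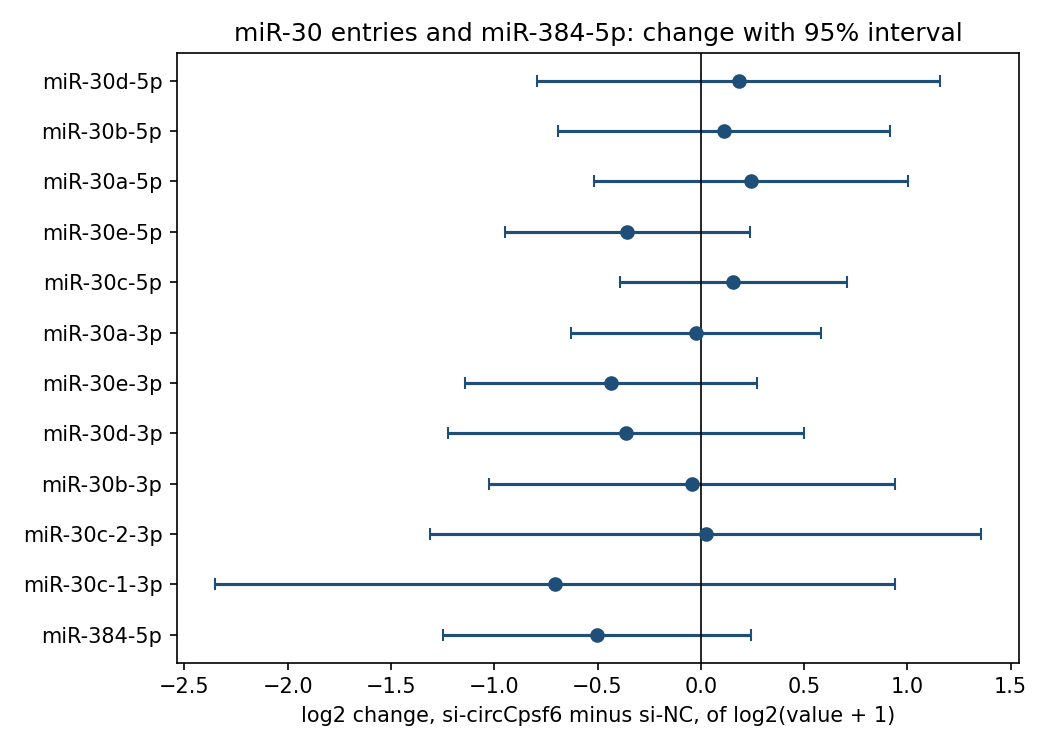
The log2 change from si-NC to si-circCpsf6 (points) with its 95% interval from limma (bars) for the 11 miR-30 entries and miR-384-5p, on the log2(value + 1) scale. Each interval includes 0, and the interval of miR-30c-1-3p, from -2.35 to 0.94, is the widest.

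miR-384-5p, a brain-enriched miRNA of the X chromosome that shares the miR-30 seed, was listed at 1402, 1263 and 2327 with si-NC and at 1296, 903 and 1237 with si-circCpsf6. The highest value was in si-NC replicate 3, and the groups overlapped. Its mean of 1664 ± 578 with si-NC and 1145 ± 212 with si-circCpsf6 gave a log2 change of -0.50 (95% interval -1.25 to 0.24, adjusted p = 0.751 by limma). It averaged 0.804% of the summed miR-30 5p value, so reads with this seed came mostly from miR-30 itself. Its arms were nearly balanced, with miR-384-3p at 1385 ± 744 and 977 ± 221, unlike the strong 5p dominance of the miR-30 hairpins.

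Among the 363 other entries with a mean of 100 or more, those whose log2 values followed the summed miR-30 5p value best over the 6 libraries were miR-743b-5p (r = 0.996), miR-212-5p (0.995), miR-744-5p (0.982), miR-743b-3p (0.978) and the predicted candidate PC-3p-2350_929 (0.975). Spearman's rho was 1 for the former 3 and 0.943 for the latter pair. With the group means removed, miR-743b-5p (0.997), miR-351-3p (0.997), miR-212-5p (0.996), miR-881-3p (0.991) and miR-322-3p (0.989) were closest. These are descriptions picked as the highest of 363 values over 6 libraries that share their normalization.

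Other miRNAs linked to the processes known for miR-30 were read from the same test. Of 12 autophagy-linked miRNAs, among them miR-101a, miR-376b, miR-17 and miR-375, 0 passed the limma test in either direction and 0 had an unadjusted p under 0.05. Their median log2 change was 0.38, with 11 above 0 and 1 below (55.7% of all entries tested were above 0), and 9 above 0 with libraries rescaled to 1 total. Of those above 0, miR-93-5p (0.012) and miR-106b-5p (0.018) had lower means with si-circCpsf6. miR-204-5p and miR-20b-5p stayed at 11 or less. Several of the 12 are related by name, such as miR-20a with miR-20b and miR-106a with miR-106b, so they are not independent entries. miR-101b-3p was listed at 25264, 27927 and 28797 with si-NC and at 32910, 35648 and 38607 with si-circCpsf6, so its groups did not overlap (log2 change 0.39, SE 0.23, adjusted p = 0.735). The groups were apart for 2 of the 12 (11.7% over all entries), the other being miR-106a-5p, which stayed at 14 or less.

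Of 8 analysed miRNAs that repress Snai1, Zeb1, Zeb2 or other drivers of the mesenchymal state, 0 passed in either direction and 3 had an unadjusted p under 0.05 (6.22% over all entries). These were miR-200a-3p, miR-200c-3p and miR-429-3p, with lower values with si-circCpsf6 (log2 changes -3.71, -2.06 and -3.64, adjusted p = 0.459, 0.576 and 0.364 by limma). They were at most 141 normalized reads in any library, against 20579 or more for miR-30a-5p. The median log2 change of the 8 was -2.12, and 5 were below 0 and 3 above, or 2 above with libraries rescaled to 1 total. The 5 below 0 were all of the miR-200 family, so they are related entries and not independent ones. Those above were miR-34c-5p, miR-203-3p and miR-205-5p. miR-34a and miR-34b, also on the list, had no entry. This list and the autophagy list were chosen with earlier results of these data known. Their counts are therefore no test against the shares over all entries. With si-circCpsf6, miR-429-3p was listed at 6, 0 and 0 and miR-200a-3p at 25, 9 and 0, so the size of their changes depends on the pseudocount.

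The labelled cell type was checked against marker miRNAs. The 8 neuronal and neuroendocrine markers summed to between 7.03% and 15.1% of a library, from 180697 in si-NC replicate 3 to 495121 in si-circCpsf6 replicate 2. Most of that sum was miR-7a-5p and miR-7b-5p, at means of 218283 and 75946 over the libraries, against 324852.5 for all 8. The sum therefore mainly shows the miR-7 family, and miR-375-3p, for example, averaged 217.5. The liver marker miR-122-5p was listed at 0 in 5 libraries and at 5 in si-NC replicate 2. The 3 blood cell markers analysed summed to 13 to 46 reads, the 3 muscle markers to 473 to 704, and the 7 epithelial markers to 1019 to 1577. Library totals of normalized reads, repeated rows included, ran from 2570449 to 3268351. Since the values were normalized before deposit, these totals are not read depths, and no counting intervals can be given.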

How the data were processed

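Libraries were prepared with a TruSeq small RNA kit, per the labels' protocols, and samples were grouped by title. The values are the authors' normalized read numbers, rounded to whole numbers and treated as a score, per the file headers. Per the submitters' processing notes the build was mm9. No source used here names the aligner, the counting or the normalization. Entries that repeated an earlier row were merged, unless they had few values above 0 and a different name, which left 1046 of 1080. The 916 with a mean of 1 or more were tested by limma 3.58.1 (trended variance, R 4.3.3) on log2(value + 1), adjusted by Benjamini-Hochberg at 0.05. This scale understates changes of low entries. The 3p to 5p ratio used the same pseudocount, with arms summed per name. Entry length is the RefSeq mature length plus the bases the name adds or removes. The limma step was tested on simulated data with planted changes far larger than those of the miR-30 entries. That check does not show whether changes of their size would be found. Exact permutation tests used scipy 1.17.1 in Python 3.11.15. Alternatives were other pseudocounts (0.1 and 5) and filters, identical rows kept apart, mouse-named entries alone, rescaled values, array weights, a robust variance, the replicate number as a block, and each library left out in turn. All miR-30 entries were named by rule, with seed mates, the 5 most similar entries and fixed lists. The members and lists were chosen with earlier results of these data known.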

Additional observations from a re-analysis of the deposited data

How the results depend on the processing

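No miR-30 entry passed under any of the 17 alternatives (187 recomputed values, adjusted p from 0.107 to 1), and miR-30c-1-3p, miR-30c-5p, miR-30d-3p, miR-30e-3p and miR-30e-5p kept their direction in all of them. With array weights the log2 change was -0.033 for miR-30a-5p, -0.21 for miR-30d-5p and -0.48 for miR-30c-2-3p, and with libraries rescaled to the mean total it was -0.056 for miR-30c-2-3p, each opposite to the main value. With each library left out in turn, the log2 change ran from -0.071 to 0.40 for miR-30a-5p, from -0.26 to 0.43 for miR-30d-5p, from -0.18 to 0.43 for miR-30b-5p, from -0.13 to 0.087 for miR-30a-3p, from -0.31 to 0.19 for miR-30b-3p and from -0.52 to 0.33 for miR-30c-2-3p. The log2 change of the 3p to 5p ratio ran from -0.53 to 0.15 for miR-30a, from -0.72 to 0.35 for miR-30b, from -0.80 to 0.078 for miR-30c and from -0.31 to 0.17 for miR-30e. Over all entries, 0 passed with the full set of libraries, 0 to 4 with 1 left out (4 without si-NC replicate 3) and 31 with array weights, and 57 had an unadjusted p under 0.05, against 45 to 127 with 1 left out and 210 with array weights. Of the hairpin ratios, 0 to 1 passed with 1 left out. The cause was not tested. Without the 2 farthest libraries, r changed sign to 0.36 for miR-30a-5p with miR-30c-5p and to 0.30 for miR-30c-5p with miR-30e-5p, a check added after seeing the data, as were the correlations of the 5p arms themselves and the test of the miR-30e-5p share with its leave-outs.

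Whether the replicate numbers pair the libraries is uncertain, and they were not treated as pairs. Deviations of same-numbered libraries from their group means correlated at 0.047, 0.48 and 0.40 for replicates 1, 2 and 3. Replicates 2 and 3 followed their own number best, whereas si-NC replicate 1 followed si-circCpsf6 replicate 2 more closely (0.18), a hint from the data and not from the design. With the replicate block 0 entries passed, 0 of them miR-30 entries, and 87 had an unadjusted p under 0.05. Read depth is unknown, which limits what the low 3p arms can show.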

Other observations

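Outside the mouse-named entries, 2 entries were named after the pig miR-30a-3p. The one named as shorter by a base at the 5′ end and longer by a base at the 3′ end was listed at 0, 12 and 0 with si-NC, and at 8, 25 and 22 with si-circCpsf6, with groups that overlapped. The other, longer by 2 bases at the 3′ end, was listed at 3, 4 and 0 with si-NC, and at 4, 0 and 0 with si-circCpsf6. Both are far below mouse miR-30a-3p, which had at least 1157 reads in each library.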
